A study of Mus musculus with 3 samples.

Results

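Hdac9 and 3 genes of the myocyte enhancer factor 2 (MEF2) family, Mef2c, Mef2a and Mef2d, were followed in Langerhans cells of mouse ear skin after 2 kinds of skin injury. They are 4 of the 34289 features listed in each of the 3 libraries. Their symbols were chosen because Hdac9 and Mef2c had been seen to be lower in the injured libraries and Hdac9 more so after microneedle punches; the members were thus chosen by their measured levels and shares of positive cells, and every level and change of the members below is a description of these libraries and none was tested.

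The series profiled cells by droplet-based 3' single-cell RNA sequencing from male CD1 mice, an outbred stock, with 1 library per group and no replicates. Control mice had only the depilatory cream Nair, and the treated groups had either croton oil, an irritant plant oil, with acetone and olive oil, or repeated microneedle punches. Ears were collected 48 h after treatment began. Epidermal sheets freed by trypsin were dissociated, dead cells were depleted and Langerhans cells enriched magnetically; the sources used here do not give the animals' ages or how many animals went into a library, so library, animals and treatment cannot be told apart.

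Langerhans cells are the antigen-presenting cells that live in the epidermis. Here they were taken as cells in which Cd74, H2-Aa, H2-Ab1 and H2-Eb1, genes of MHC class II antigen presentation, made up at least 2% of the unique molecular identifiers (UMIs, each a captured RNA molecule), and which held at least 2 UMIs of Epcam, an adhesion molecule of epidermal Langerhans cells. The gate kept 8651 of 9054 untreated cells, 5925 of 7626 croton oil cells and 5292 of 6479 microneedle cells. Their median depth was 11526 UMIs in the untreated, 12586 in the croton oil and 17346 in the microneedle library. Cd207, the defining Langerhans cell gene, which encodes langerin and was not used by the gate, had at least 1 UMI in 97.2%, 76.8% and 95.2% of them. Between 11 and 27 cell barcodes were shared by each pair of libraries. The croton oil library stood apart in H2-Ea, a class II gene that some mouse haplotypes do not express: it had 138 CPM (a gene's UMIs per 1000000 UMIs of the cells summed) in gated croton oil cells, against 1.36 CPM in untreated and 1.43 CPM in microneedle cells. The part of this difference in the results below was not tested.

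Hdac9 encodes a class IIa histone deacetylase. These proteins have little deacetylase activity of their own and act as corepressors that bind MEF2 transcription factors on DNA. Kinases of the SIK, CaMK and protein kinase D families phosphorylate them, 14-3-3 proteins then hold them in the cytoplasm, and MEF2 factors are freed to bind coactivators. Hdac9 has itself been described as a MEF2 target, and Mef2c is known for its roles in muscle, neurons, B cells and myeloid cells.

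Hdac9 (ENSMUSG00000004698) lies on the minus strand of chromosome 12 (GRCm39, 34097579 to 34967094 in GENCODE M39). In gated Langerhans cells it stood at 104.6 CPM in the untreated library (95% counting interval 102.7 to 106.6), at 37.8 CPM (36.5 to 39.2) in the croton oil library and at 9.87 CPM (9.25 to 10.5) in the microneedle library. The 3 intervals, which like all intervals here cover counting error within a library only, did not overlap. Hdac9 was thus 2.77-fold lower (2.66 to 2.88) in croton oil than in untreated cells, 10.6-fold lower (9.92 to 11.3) in microneedle cells, and 3.83-fold lower (3.56 to 4.13) in microneedle than in croton oil cells. On the scale used for all genes, log2 of CPM + 5, the changes were -1.36, -2.88 and -1.53. Both comparisons with untreated cells use the same untreated library.

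Changes of at least 2-fold on that scale, among genes with at least 20 CPM in either library of a comparison, were used as the background. Lower by at least 2-fold were 5.46% of 6835 genes in croton oil against untreated cells, in microneedle against untreated cells 1.78% of 6704, and in microneedle against croton oil cells 1.58% of 6637. At least 2-fold higher were 5.53%, 3.86% and 1.01%. Counted from the lowest change, Hdac9 ranked 160 in the first comparison, 2 in the second and 43 in the third. The balance of the background depended on scaling: with TMM factors the share of higher genes among those past 2-fold went from 50.3% to 62.4% in croton oil and from 38.95% to 25.8% between the treated libraries, and the median change of all genes between the treated libraries went from 0.06 to -0.06.

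Mef2c (ENSMUSG00000005583), the other member that was at least 2-fold lower in both treated libraries, lies on the plus strand of chromosome 13 (83652064 to 83815555). Untreated Langerhans cells had 57.3 CPM (55.8 to 58.7), those of the croton oil library 13.7 CPM (12.9 to 14.5) and those of the microneedle library 12.04 CPM (11.4 to 12.7). The treated libraries were both far below the untreated one and close to each other, and neither of their intervals overlapped that of untreated cells. The level was 4.19-fold lower (3.93 to 4.47) in croton oil and 4.76-fold lower (4.47 to 5.07) in microneedle cells, log2 changes of -1.74 and -1.87, which ranked 66 and 14 from the lowest. Between the treated libraries Mef2c differed 1.14-fold (1.05 to 1.23), and among cells of 10000 to 20000 UMIs this small difference had the opposite sign, so no order of the treated libraries is given for it.

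Mef2a (ENSMUSG00000030557, chromosome 7, minus strand, 66880911 to 67022606) had 299 CPM (295 to 302) in the untreated, 215 CPM (212 to 218) in the croton oil and 251 CPM (248 to 254) in the microneedle library. It was 1.39-fold lower (1.36 to 1.42) in croton oil and 1.19-fold lower (1.17 to 1.21) in microneedle cells, log2 changes of -0.47 and -0.25, neither past 2-fold. Mef2d (ENSMUSG00000001419; chromosome 3, plus strand, 88049185 to 88079398) had 254 CPM (251 to 257), 127 CPM (124 to 129) and 195 CPM (192 to 198). Its log2 change of -0.98 in croton oil cells lay at the edge of 2-fold, which it passed in 6 of 15 alternative settings, and its change in microneedle cells was -0.38. For both genes the croton oil library was the lowest and the microneedle library lay between, an order unlike that of Hdac9, whose lowest library was microneedle.

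**Figure D1:**
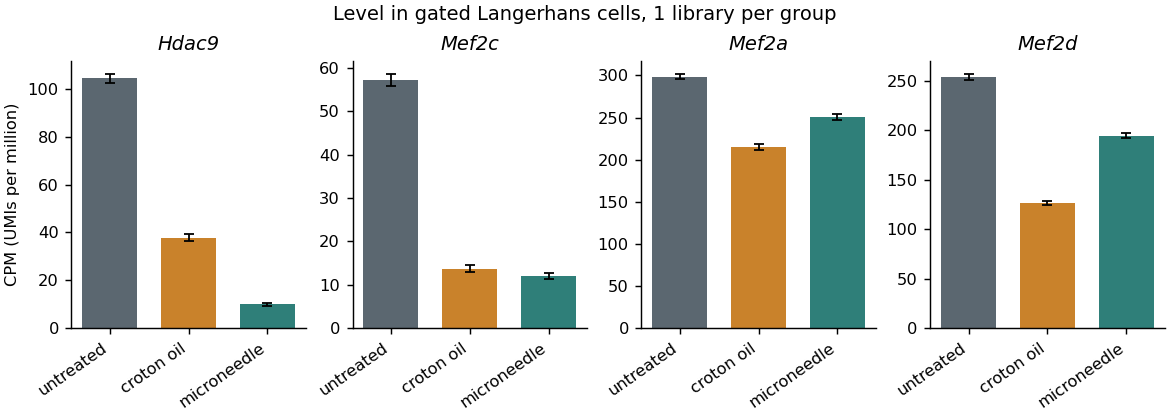
Levels of Hdac9, Mef2c, Mef2a and Mef2d (CPM, 1 panel per gene, each with its own axis from 0) in gated Langerhans cells of the untreated, croton oil and microneedle libraries; bars are 1 library each and error bars are 95% Poisson counting intervals. Hdac9 steps down from 104.6 to 37.8 to 9.87 CPM, Mef2c is low in both treated libraries, and Mef2a and Mef2d are lowest in croton oil.

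Since Hdac9 and Mef2c were low together, the sequences just before their RefSeq starts are shown, 250 bases each, 5' to 3' on the gene's strand. They are as RefSeq gives them for GRCm38.p6, with the place of the identical stretch in GRCm39. Both Hdac9 windows and the outermost of the 3 Mef2c windows are printed. The last 89 bases of this Mef2c window lie inside the gene's span in GENCODE M39. Capitals mark matches on either strand to GAGGAA, a core bound by the myeloid factor PU.1, and to TGANTCA, a looser pattern that takes in the AP-1 sites TGACTCA and TGAGTCA; no match of one overlapped a match of the other.
Hdac9, distal start, chr12:34967095-34967344, minus strand: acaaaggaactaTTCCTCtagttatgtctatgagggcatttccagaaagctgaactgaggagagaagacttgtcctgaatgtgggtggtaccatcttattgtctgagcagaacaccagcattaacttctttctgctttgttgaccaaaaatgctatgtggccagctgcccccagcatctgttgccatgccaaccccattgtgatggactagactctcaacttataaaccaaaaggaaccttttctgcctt
Hdac9, internal start, chr12:34578889-34579138, minus strand: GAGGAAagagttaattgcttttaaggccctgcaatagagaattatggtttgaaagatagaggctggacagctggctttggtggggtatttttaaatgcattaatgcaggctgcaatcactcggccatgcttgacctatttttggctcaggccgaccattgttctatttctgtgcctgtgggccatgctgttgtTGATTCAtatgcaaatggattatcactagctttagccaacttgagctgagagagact
Mef2c, outermost start, chr13:83651903-83652152, plus strand: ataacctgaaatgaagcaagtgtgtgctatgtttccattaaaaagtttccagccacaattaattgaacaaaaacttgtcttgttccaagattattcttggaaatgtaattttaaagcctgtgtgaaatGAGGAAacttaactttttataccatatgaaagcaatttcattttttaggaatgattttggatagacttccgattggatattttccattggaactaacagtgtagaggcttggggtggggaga
Of 32851 windows of this length, 23.3% held GAGGAA and 6.75% TGANTCA on either strand. GAGGAA occurred in both Hdac9 windows and in 2 of the 3 Mef2c windows, and TGANTCA in the internal Hdac9 window, as TGATTCA, and in 1 Mef2c window, as TGAATCA, so neither match was one of the AP-1 sites. The Mef2a window held 2 matches of GAGGAA and none of TGANTCA, and the Mef2d window neither. The longer MEF2 consensus, searched on both strands and found in 2.92% of windows, was in none of these windows upstream of the start. When the window was extended past the start, the Mef2a one held 1 match and those of the other members held none. A 3' assay does not tell which start a molecule came from, and a match is a description of letters only.

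Fewer cells held the transcripts in the treated libraries. After thinning each cell to 3000 UMIs, which left out 102 untreated, 32 croton oil and 59 microneedle cells, 19.96% (19.1 to 20.8) of untreated, 6.60% (5.98 to 7.27) of croton oil and 2.37% (1.97 to 2.82) of microneedle Langerhans cells had a Hdac9 UMI. Without thinning the shares were 36.4%, 14.7% and 6.42%. For Mef2c the thinned shares were 13.4% (12.7 to 14.2), 3.29% (2.85 to 3.78) and 2.68% (2.26 to 3.15), and the unthinned ones 33.0%, 8.56% and 8.62%. The groups did not overlap in their counting intervals for Hdac9, and for Mef2c the intervals of the treated libraries did.

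For Hdac9 and Mef2c the molecules per positive cell moved less than the shares. Among cells of 10000 to 20000 UMIs, Hdac9 was found in 36.1% of untreated cells with a mean of 3.78 UMIs per positive cell, in 13.9% of croton oil cells with 3.37 UMIs, and in 6.09% of microneedle cells with 2.52 UMIs. In the same cells Mef2c was found in 32.8%, 7.88% and 8.53%, with 2.22, 2.22 and 2.46 UMIs per positive cell. Mef2d, at the same depth, was found in 89.6%, 73.8% and 84.4% of cells with 3.89, 2.35 and 3.45 UMIs. For a gene found in most cells, as Mef2d was, the number of UMIs per positive cell carries more of any difference, so the shares of the 4 genes are not set against each other.

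**Figure D2:**
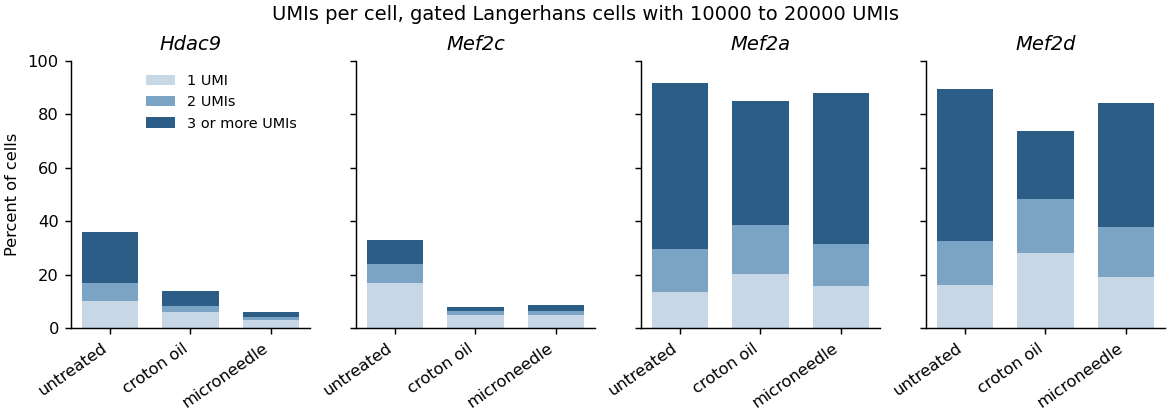
Percent of gated Langerhans cells of 10000 to 20000 UMIs with 1, 2, or 3 or more UMIs of each member (stacked bars, 1 per library). The Hdac9 stack is 36.1% high for untreated cells, 13.9% for croton oil and 6.09% for microneedle, and the Mef2d stack from 89.6% to 73.8% and 84.4%.

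Hdac9 was spread unevenly over cells. At 3000 UMIs per cell its variance exceeded its mean 1.98-fold in untreated, 2.39-fold in croton oil and 2.02-fold in microneedle cells, against 1.39, 1.29 and 1.37 for Mef2a and 1.26, 1.16 and 1.21 for Mef2d. Mef2c had 1.57, 1.76 and 2.07. A ratio of 1 is what counting alone gives when all cells hold the same level.

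Free RNA in droplets can give UMIs in cells that do not express a gene, so the shares are given beside those of keratinocyte-like cells of the same library, also thinned to 3000 UMIs. A Hdac9 UMI was found in 9.62% (5.97 to 14.5) of untreated, 0.498% (0.0126 to 2.74) of croton oil and 1.22% (0.0309 to 6.61) of microneedle keratinocyte-like cells, whose median depths before thinning were 25053, 49175.5 and 26737.5 UMIs. These cells were deeper than the Langerhans cells, and a given amount of free RNA weighs less in deeper cells, in thinned shares as in CPM. The microneedle share of 2.37% lay inside the keratinocyte-like interval, which rests on 82 cells, so the shares could not be told apart at this number of cells. For Mef2c the keratinocyte-like shares were 3.85% (1.67 to 7.44), 2.99% (1.10 to 6.38) and 2.44% (0.297 to 8.53), and the untreated Langerhans cell share lay above its interval while the treated shares lay inside theirs. T cell-like cells of the croton oil library, with a median depth of 6137 UMIs, had 0 of 124 cells with a Mef2c UMI, which allows up to 2.93% and overlaps the croton oil Langerhans cell interval (2.85 to 3.78). Neutrophil-like cells, whose cluster had a median depth of 3257 UMIs over the libraries, were also thinned to 3000 UMIs. A Hdac9 UMI was found in 1 of 109 of them in the croton oil library. Of 269 in the microneedle library, 8 held Hdac9 without Mef2c and 2 held both. At these unequal depths the shares do not tell how much of the Hdac9 and Mef2c values of any library was background.

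The untreated Langerhans cells were not uniform in Hdac9. Joint clustering of the 3 libraries put nearly all gated cells into 7 clusters of Langerhans cell-like cells, with most cells of a library in clusters of its own, so that a cluster can stand for a library. The gate also held cells of other clusters, the largest such set being 76 croton oil cells of the T cell-like cluster, beside 12 microneedle cells of that cluster and 37 untreated cells of the keratinocyte-like one. The 8 T cell markers summed to 4.02, 70.3 and 11.7 CPM in gated untreated, croton oil and microneedle cells, with 0, 1 and 0 of them at 20 CPM or more and none at 0. The main croton oil and main microneedle clusters, which leave these cells out, had Hdac9 log2 changes of -1.38 and -2.95 against all gated untreated cells. The main untreated cluster (cluster 0, 5325 cells) had 136 CPM (134 to 139) of Hdac9 and 68.5 CPM (66.5 to 70.5) of Mef2c. The second untreated cluster (cluster 2, 2261 cells) had 31.9 CPM (29.8 to 33.98) and 31.6 CPM (29.6 to 33.7). Of 6403 genes compared between these clusters, 19 were at least 2-fold lower and 37 at least 2-fold higher in the second; Hdac9 was the lowest of all and Mef2c ranked 19. The second cluster was higher in the neutrophil-attracting chemokines Cxcl1 (46.0 against 5.16 CPM) and Cxcl2 (540 against 108 CPM) and in the cytokine gene Il1b (144 against 45.6 CPM). A cluster's genes help to make it, so the differences describe the split and support nothing.

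Leaving the members out of the clustering, an alternative chosen after seeing the data, moved the border and made the contrast smaller. Hdac9 and Mef2c had been among the 2000 variable genes and Mef2a and Mef2d had not. Without them the untreated cells fell into groups of 3557 cells with 148 CPM (145 to 152) of Hdac9 and 70.6 CPM of Mef2c, and of 3990 cells with 56.3 CPM (54.1 to 58.5) and 42.7 CPM. The second of these took in 1749 cells of the former main cluster. Which untreated cells are set against the treated ones therefore matters for croton oil. Against the second untreated cluster of the first clustering the croton oil level of Hdac9 was no lower (log2 change 0.22), and against the 3990 cells of the second clustering it was lower by a log2 change of -0.52. The microneedle level was lower in both cases, with log2 changes of -1.31 and -2.04.

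Within most clusters shared by libraries the untreated cells were again the highest. In cluster 1, led by the heat shock genes Hsph1, Hspa1a and Hspa1b, the 685 untreated cells had 146 CPM (136 to 155) of Hdac9, the 698 croton oil cells 49.3 CPM (44.8 to 54.1) and the 539 microneedle cells 9.496 CPM (7.40 to 11.998). Mef2c there was at 76.5, 25.7 and 15.9 CPM. The 211 microneedle cells of cluster 0 had 25.5 CPM (20.3 to 31.6) of Hdac9 and 26.4 CPM (21.1 to 32.6) of Mef2c, well below the untreated cells of that cluster and above the microneedle mean. The 252 microneedle cells of cluster 2 had 1.93 CPM (0.776 to 3.98) of Hdac9, from 7 UMIs. Cluster 3 was the exception for Hdac9: its 118 untreated cells had 17.2 CPM (11.5 to 24.9), below the 39.8 CPM (31.7 to 49.3) of its 141 croton oil cells, and its 4096 microneedle cells had 9.20 CPM (8.54 to 9.89). Mef2c in cluster 3 was highest in untreated cells, at 28.3 CPM (20.7 to 37.8), with 16.3 CPM (11.3 to 22.8) after croton oil and 11.2 CPM (10.5 to 11.9) after microneedle punches.

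The migratory state, a cluster led by Fscn1 and by Ccr7, the receptor that guides Langerhans cells to lymph nodes, had little of either gene. Its 257 gated croton oil cells had 9.59 CPM (6.75 to 13.2) of Hdac9 and 6.48 CPM (4.19 to 9.56) of Mef2c, against 37.2 CPM and 12.4 CPM in the main croton oil cluster. Mef2a, at 196 CPM, was close to its 215 CPM in the main croton oil cluster, and Mef2d had 96.9 CPM (87.3 to 107) against 132.5 CPM (129.7 to 135.4). The gate left out 730 croton oil cells of this cluster, and the cells of all Langerhans cell-like clusters, gated or not, gave a Hdac9 log2 change of -1.44 in croton oil. Cycling cells of the untreated library, 187 cells led by genes such as Top2a, had 98.6 CPM (88.7 to 109) of Hdac9.

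**Figure D3:**
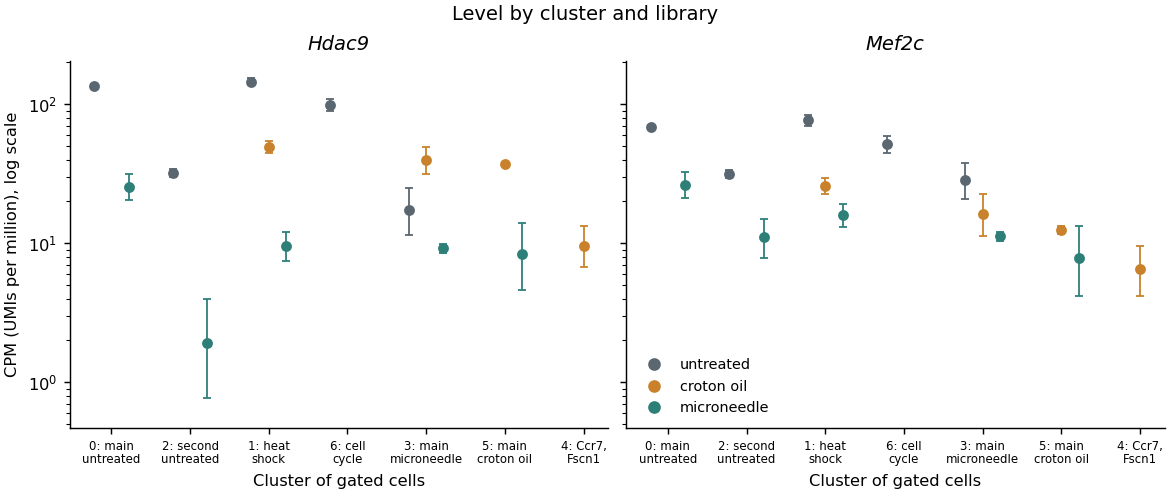
Hdac9 and Mef2c levels (CPM, log axis) in each cluster of gated Langerhans cells with at least 100 cells of a library; points are 1 library each and bars are 95% Poisson counting intervals. In the heat shock cluster the 3 libraries step down for both genes, and the untreated main and second clusters differ from 136 to 31.9 CPM for Hdac9.

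Among all gated cells Hdac9 and Mef2c were found together somewhat more often than the product of their shares. At 3000 UMIs per cell 3.74% (3.35 to 4.17) of untreated cells held both, against a product of 2.68%, a ratio of 1.40. In croton oil cells 0.390% (0.248 to 0.585) held both against 0.217%, from 23 cells, a ratio of 1.80. Microneedle cells had 0.172% (0.0787 to 0.326) against 0.0634%, from 9 cells, a ratio of 2.71. For Hdac9 with Mef2a the ratios were 1.08, 0.96 and 1.02, and for Hdac9 with Mef2d 1.05, 1.12 and 1.09. Within the largest cluster of each library the Hdac9 and Mef2c ratio was 1.22, 2.19 and 2.96 (untreated, croton oil, microneedle). These rest on 250, 18 and 6 cells with both. At 6000 UMIs per cell they were 1.16, 1.63 and 2.99. Smaller sets did not all show an excess. In cluster 1 at 3000 UMIs the ratio was 1.34, 0.94 and 2.49, from 45, 5 and 1 cells. In cluster 2 it was 1.49 for untreated cells, from 17 cells, and 0 of 249 microneedle cells held both. Cells of a library share their source and are not replicates, so these ratios are descriptions.

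Other cell classes of the same libraries held the transcripts too. The highest level of Hdac9 was in monocyte/macrophage-like cells, of which the microneedle library held 364: 179 CPM (163 to 196). There Mef2c was also at its highest, 93.6 CPM (82.1 to 106). Being 5.62% of the microneedle cells, they held 30.3% of that library's Hdac9 UMIs and 15.5% of its Mef2c UMIs. Mef2a stood at 441 CPM (415 to 467) and Mef2d at 177 CPM (161 to 195) in these cells.

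The T cell-like cells of the croton oil library outside the gate, 134 cells, had 134 CPM (111 to 159) of Hdac9 but 2.10 CPM (0.255 to 7.60) of Mef2c, from 2 UMIs. Their cluster also met the marker rule for Langerhans cells and was led by Cd3g, Trdc and other T cell genes. Neutrophil-like cells held more Mef2c than T cell-like cells. Their Mef2c level was 41.4 CPM (28.1 to 58.7) after croton oil and 66.6 CPM (55.5 to 79.4) after microneedle punches, and their Hdac9 level 1.33 CPM (0.0338 to 7.44), from 1 UMI, and 19.2 CPM (13.4 to 26.6).

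Keratinocyte-like cells, whose cluster also met the marker rule for melanocytes, had 31.5 CPM (27.2 to 36.3) of Hdac9 in the untreated library, 4.24 CPM (3.104 to 5.65) after croton oil and 8.42 CPM (5.64 to 12.1) after microneedle punches. Their Mef2c levels were 12.04 CPM (9.43 to 15.1), 4.88 CPM (3.66 to 6.39) and 3.48 CPM (1.80 to 6.08). Both were highest in the untreated library, the library whose Langerhans cells were also highest. How much of these UMIs came from free Langerhans cell RNA was not tested. Cd207 was at 86.1 CPM in untreated keratinocyte-like cells, against 568 CPM in untreated Langerhans cells. The listed features also held mCherry, a fluorescent reporter and not a mouse gene, which was among the leading genes of this cluster. Whether the libraries differed in it was not tested.

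**Figure D4:**
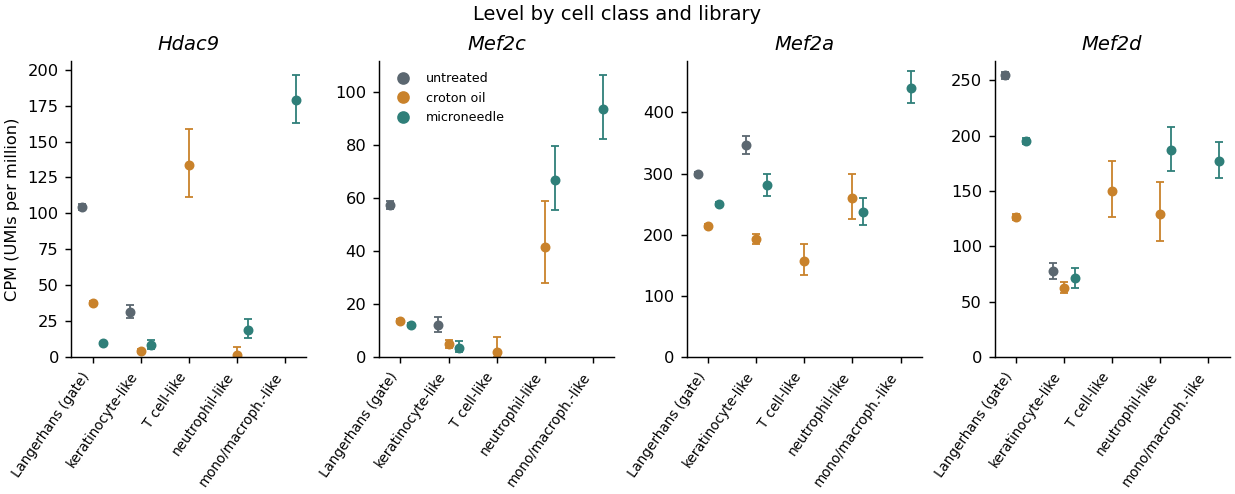
Levels of the 4 members (CPM, 1 panel per gene, axes from 0) in gated Langerhans cells and in other cell classes with at least 50 cells of a library; points are 1 library each and bars are 95% Poisson counting intervals. Hdac9 is highest in microneedle monocyte/macrophage-like cells (179 CPM) and in croton oil T cell-like cells (134 CPM), and Mef2c is low in the T cell-like cells (2.10 CPM).

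Of the 3 class IIa histone deacetylases compared, 1 was at least 2-fold lower in each treated library. Over all genes these shares were 5.46% in croton oil and 1.78% in microneedle. The 1 was Hdac9, which was chosen for being lower. Hdac4 had 29.1 CPM in untreated Langerhans cells, 34.5 in croton oil and 40.8 in microneedle ones, the order kept below, and Hdac5 had 44.6, 39.2 and 37.3 CPM. Hdac7 stayed under the 20 CPM filter, with 0.760, 6.91 and 1.07 CPM. Of 4 other classical histone deacetylases compared in croton oil and 3 in microneedle none was past 2-fold. Of all genes, 5.46% were lower and 5.53% higher in croton oil, and 1.78% and 3.86% in microneedle. At these shares a count of none in so few genes sets them apart from no other genes. Hdac8 came closest, with 114.6, 56.6 and 108.4 CPM. Mef2b, the last of the MEF2 family, was also under the filter, with 10.9, 9.13 and 10.8 CPM.

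Of 10 kinases of class IIa deacetylases compared, 1 was at least 2-fold lower in croton oil, where 5.46% of all genes were, and 0 in microneedle, where 1.78% were. Changes below 0 were seen for 8 in croton oil and 9 in microneedle, against 52.1% and 47.0% of all genes, with median log2 changes of -0.34 and -0.25, against medians of -0.03 and 0.02 over all genes. The single kinase past 2-fold was Camk1d, a calcium-responsive kinase, with 626, 288 and 443 CPM. Sik1, Sik2 and Sik3, the salt-inducible kinases, had log2 changes between -0.62 and -0.14 in croton oil and between -0.27 and -0.07 in microneedle. None of the 6 genes of 14-3-3 proteins was past 2-fold in either comparison. Of all genes, 5.46% were lower and 5.53% higher in croton oil, and 1.78% and 3.86% in microneedle. Ywhah came closest, with 509, 892 and 821 CPM.

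Of 5 genes of the corepressor complex that class IIa deacetylases recruit, 1 passed 2-fold downward in croton oil and 0 in microneedle, beside the same 5.46% and 1.78% of all genes. It was Tbl1xr1, an exchange factor of that complex, with 419, 200 and 307 CPM, while Ncor1, the corepressor itself, had 293, 254 and 268 CPM. Among 10 activators and coactivators of MEF2, Map2k6, a kinase that activates p38, was at least 2-fold lower in both, with 24.6, 4.01 and 7.59 CPM, so that 1 of 10 was lower in each, against 5.46% and 1.78% of all genes. Ppp3cc, a catalytic subunit of calcineurin, was at least 2-fold higher in microneedle cells and under 2-fold in croton oil, with 20.02, 36.0 and 50.7 CPM, against 3.86% of all genes higher in microneedle. The other members of this list stayed within 2-fold, with list medians of -0.23 in croton oil and 0.01 in microneedle.

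Of 5 genes reported as MEF2 targets, Hdac9 among them, 3 were at least 2-fold lower in each treated library, against 5.46% of all genes in croton oil and 1.78% in microneedle; Hdac9, 1 of the 3, was chosen for being lower. Klf2, a transcription factor of quiescent leukocytes, had 196, 69.2 and 58.2 CPM, and Jun, a subunit of AP-1, had 1871, 513 and 684 CPM. Nr4a1, an immediate early nuclear receptor, had 319, 208 and 273 CPM and was not past 2-fold. Klf4 had 66.2, 71.1 and 68.7 CPM. Unlike Hdac9, Klf2 was higher in the second untreated cluster (282 CPM) than in the main one (180 CPM).

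**Figure D5:**
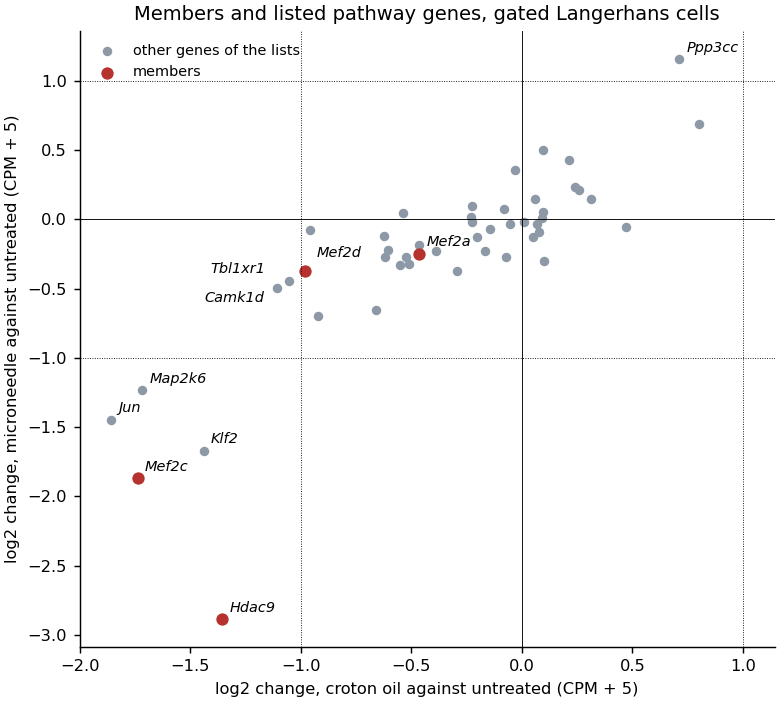
Log2 change (CPM + 5) of each listed pathway gene with at least 20 CPM in some library, croton oil against untreated on the x axis and microneedle against untreated on the y axis; dotted lines mark 2-fold, members are red. Both axes share the untreated library, which alone draws points toward the diagonal; Hdac9 (-1.36, -2.88) lies below the others and Mef2c (-1.74, -1.87) lies near Klf2 and Jun.

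The genes most like Hdac9 in the pair of changes against untreated, among 3550 genes with at least 50 CPM in untreated cells, were Krt10, Mef2c, Klf2, Qpct and Hcar2, at Euclidean distances of 0.75 to 1.32. Nearest to Mef2c were Qpct, H2-M5, Krt10, Klf2 and Hcar2, at 0.29 to 0.42. Krt10 is a keratin of upper keratinocytes, with 14749 CPM in untreated keratinocyte-like cells, and the 8 keratinocyte markers summed to 243, 206 and 60.9 CPM in gated cells of the 3 libraries, none of them at 0. The part of keratinocyte RNA in the Hdac9 and Mef2c values was not tested; untreated keratinocyte-like cells had less of both genes (31.5 and 12.04 CPM) than untreated Langerhans cells.

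Across 14 points, each a Langerhans cell cluster in a library with at least 100 cells, Hdac9 correlated with Cited2 (Pearson r of 0.90 on log2 of CPM + 5), E330020D12Rik (0.88), Mef2c (0.86), Gnas (0.84) and Cpsf6 (0.84). With Mef2a and Mef2d its r was 0.20 and 0.15. For Mef2c the highest were Rasa3 (0.95), Eef1b2 (0.95), Ganc (0.94), Trp53 (0.93) and Fry (0.92). The points share libraries, so these values are descriptions that follow differences between libraries as much as between clusters.

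Of the annotated neighbours of Hdac9, Twist1, a transcription factor gene, was higher in both treated libraries, and most in croton oil. Its levels were 1.92 CPM (1.67 to 2.20) untreated, 40.4 CPM (39.02 to 41.8) after croton oil and 16.0 CPM (15.2 to 16.8) after microneedle punches, log2 changes of 2.71 and 1.60. In microneedle against untreated cells it was under the 20 CPM filter. In croton oil the share of cells with Twist1 was much the same with and without Hdac9: Twist1 had a UMI in 21.9% (19.2 to 24.8) of croton oil cells with a Hdac9 UMI and in 22.4% (21.3 to 23.6) of those without. In microneedle cells these shares were 18.5% (14.5 to 23.1) and 13.0% (12.04 to 13.9), at median depths of 18388.5 and 17296 UMIs. Scaled to depth, Twist1 there had 20.7 CPM (17.4 to 24.3) with Hdac9 and 15.6 CPM (14.8 to 16.5) without. In croton oil cells these levels were 42.3 CPM (38.9 to 46.0) and 40.0 CPM (38.5 to 41.5). Microneedle monocyte/macrophage-like cells, high in Hdac9, also had 34.9 CPM (28.0 to 42.9) of Twist1. On the other side, Snx13 had 81.9, 72.9 and 86.4 CPM, and Ahr, the aryl hydrocarbon receptor, 397, 189 and 252 CPM. The other neighbours of Hdac9 were at or near 0: Ferd3l had 0 UMIs in all 3 libraries, and Gm40383 and Prps1l1 at most 1 UMI in any. Next to Mef2c, Cetn3 had 67.9, 75.0 and 61.3 CPM; of its other annotated neighbours 2310067P03Rik had 0.232, 0.0736 and 0.196 CPM, Mir9-2hg 0.0556, 0.147 and 0.0310 CPM, and Gm48155 0.0927, 0.0613 and 0.103 CPM. Gm17750 had at most 1 UMI in any library and Gm4241 had 0 in all 3.

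Gene length and overlapping genes bear on what these counts hold. The sources used here do not say whether intronic reads were counted, and Hdac9 spans 869.5 kb and Mef2c 163.5 kb. Among genes of at least 200 kb, 15.8% passed 2-fold downward in croton oil (median log2 change -0.33), against 5.46% of all genes; in microneedle these were 4.74% (median -0.03) against 1.78%, and in microneedle against croton oil 1.44% (median 0.34) against 1.58%. Among genes under 200 kb, where Mef2c falls, 4.86% were lower in croton oil and 1.59% in microneedle. The part of gene length in the Hdac9 and Mef2c values was not tested. Of 3 nuclear-retained RNAs, none passed 2-fold. Of all genes, 5.46% were lower and 5.53% higher in croton oil, and 1.78% and 3.86% in microneedle. Malat1 had 14935, 12733 and 15118 CPM, Neat1 549, 577 and 537 CPM, and Kcnq1ot1 52.2, 32.2 and 47.5 CPM. Gm55122, which overlaps Mef2c on the other strand, had 1.89, 0.307 and 0.269 CPM, and Gm47357, which overlaps Hdac9, had 0.0927, 0.0490 and 0.0930 CPM.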

How the data were processed

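Gene by cell counts of UMIs were deposited by the authors, made with Cell Ranger 8.0 on GRCm39 per the submitters' processing notes, from 3' v3.1 libraries per the labels; the annotation and the handling of introns are not given in the sources used here. The libraries held 9876, 8241 and 6945 barcodes with 127666928, 119360952 and 117178809 UMIs (untreated, croton oil, microneedle). Cells with at least 500 genes and at most 10% mitochondrial UMIs were kept. Scrublet (scanpy 1.11.5) called only 1, 0 and 0 doublets by its own threshold, so the highest scores were removed at 0.8% per 1000 cells (773, 532 and 376 cells). Counts were summed over cells and scaled to CPM. Clustering used 2000 variable genes, 30 components, 15 neighbours and Leiden at resolution 0.5, with no correction between libraries. A cluster was named when 3 or more markers, and 0.5 or more of the class list, were present (20 CPM or more and 0.2 or more of the highest cluster's level). Intervals are exact (Poisson, binomial, conditional binomial) at 95%. With 1 library per group no test was possible; calls are 2-fold changes of CPM + 5. The members, lists and rules were chosen with earlier results of these data known. Named were the members, listed genes past 2-fold, class IIa genes, Mef2b, reported targets, the 5 nearest genes and 3 neighbours a side; others that came closest to 2-fold, and Sik genes, Ncor1, Cxcl1, Cxcl2, Il1b, Cd207, H2-Ea and the nuclear-retained RNAs, were named after their values were seen. The fold calculation was tested on simulated data. Alternatives to the gate, cell filters, scaling, pseudocount and depth were tried, and restricting the untreated cells or leaving the members out of clustering was chosen after seeing the data.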

Additional observations from a re-analysis of the deposited data

How the results depend on the processing

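No paired analysis was possible because each group has 1 library. Alternatives of gate, filter, scaling and depth kept every sign of the changes against untreated for all 4 members, and Hdac9 and Mef2c were at least 2-fold lower in both treated libraries in each of 15. For Hdac9 in croton oil the log2 change was -1.57 with class II genes at 4% of UMIs, -1.44 over all Langerhans cell-like clusters, -1.75 in the largest clusters, -1.26 with TMM, -1.44 with a pseudocount of 1 CPM, -1.44 after thinning, -1.43 as a mean of cells and -1.45 at 10000 to 20000 UMIs. For Hdac9 in microneedle it was -3.05 at 4%, -3.32 in the largest clusters and -3.28 with 1 CPM, and for microneedle against croton oil -1.84 with 1 CPM, -1.38 after thinning and -1.41 at 10000 to 20000 UMIs. Mef2c was at -2.08 (largest clusters) and -1.99 (1 CPM) in croton oil, and at -1.96 (4%), -2.18 (largest clusters), -2.16 (1 CPM) and -1.69 (10000 to 20000 UMIs) in microneedle; between the treated libraries it turned to 0.057 at 10000 to 20000 UMIs. The 3 added alternatives, chosen after seeing the data, restricted the untreated cells. With the main cluster Hdac9 was at -1.72 and -3.25 and Mef2c at -1.98 and -2.11 (croton oil, microneedle). With the second cluster Hdac9 was at 0.22, the opposite sign, and -1.31, and Mef2c at -0.97 and -1.10. With the larger cluster of the clustering without members Hdac9 was at -0.52 and -2.04 and Mef2c at -1.35 and -1.49. Mef2a was between -0.54 and -0.36 in croton oil and between -0.37 and -0.22 in microneedle over these 15 settings, and Mef2d between -1.07 and -0.88 and between -0.50 and -0.34. At 50 CPM, where fewer genes are compared, 227 genes passed 2-fold downward in croton oil, 68 in microneedle, and 44 higher in microneedle than in croton oil, against 373, 119 and 67. Shares of cells depended on the depth: thinned to 6000 UMIs, Hdac9 was found in 29.1%, 10.3% and 3.34% of cells and Mef2c in 22.2%, 5.30% and 4.39%. The cause of the other changes with setting was not tested.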
